A study of Mus musculus with 8 samples.

Results

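Pax5 and 6 other genes that B cells are known for (Cd22, Cd79a, Cd79b, Ms4a1, Ebf1 and Blk) were followed in RNA of sorted donor T cells. These 7 genes were looked up by symbol among the 25078 gene rows of the deposited tables. Pax5 had been picked on measured values, because its reads were present in WT CD4 T cells and near 0 in STAT3ko T cells, and the other 6 genes were set beside it to see whether B cell transcripts came with it. All values of the 7 genes that set STAT3ko against WT within CD4 T cells are therefore a description without a test.

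The 8 libraries hold RNA of donor T cells that had been taken from recipient spleens 6 days after allogeneic hematopoietic cell transplantation (HCT). Donors were C57BL/6 mice, either WT or Stat3 fl/fl CD4-Cre, in which Cre under Cd4 regulatory sequences deletes floxed Stat3 in T cells and leaves it in other donor cells. All recipients were lethally irradiated WT BALB/c mice that also received T cell-depleted bone marrow from WT C57BL/6 donors, so every group shares WT marrow and a WT host. Cells were sorted as H-2Kb+ (donor type), TCRβ+ and CD4+ or CD8+, which gave 2 libraries each of WT CD4, WT CD8, STAT3ko CD4 and STAT3ko CD8. Per the study's methods, 1 library pools the cells of 3 recipients, and the ages of the mice are not given in the sources used here. P-values measure the spread between such pools.

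Pax5 is a paired box transcription factor that commits lymphoid precursors to the B cell lineage and holds that identity until plasma cells form. It acts after Ebf1, an earlier factor of the same program, and it directly switches on genes of the B cell receptor complex such as Cd79a. T cells are not known for Pax5, since the Notch signal that drives T cell development opposes the B cell program. STAT3 is the transcription factor that carries signals of IL-6 family cytokines, IL-10 and IL-21 to the nucleus, and binds DNA at the palindrome TTCNNNGAA.

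The sequence upstream of the Pax5 start is shown because Pax5 is the member whose reads were near 0 in the STAT3ko libraries. It was taken from RefSeq (build GRCm38.p6) and covers the 250 bases before the RefSeq start, chr4:44710695-44710944 on the minus strand, written 5′ to 3′. Neither the STAT letters TTCNNNGAA (the same on both strands) nor the letters AAGGGAAT, part of the site that the EBF family binds, searched on both strands, occur in it, so it holds no capitals.

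Pax5: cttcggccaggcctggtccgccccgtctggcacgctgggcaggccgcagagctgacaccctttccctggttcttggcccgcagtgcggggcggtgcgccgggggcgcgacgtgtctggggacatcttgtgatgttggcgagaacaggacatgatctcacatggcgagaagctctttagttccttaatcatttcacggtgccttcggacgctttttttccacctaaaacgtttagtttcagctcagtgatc

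The STAT letters were present in 7.02% and the EBF letters in 1.10% of the 32851 promoters of this length in the RefSeq table. The upstream sequence of Cd79a, the signaling chain that Ebf1 and Pax5 switch on together in B cells, is shown for comparison. Its 134 bases, chr7:24897247-24897380 on the plus strand, stop before the earliest annotated start, and the capitals mark the EBF letters, whose first base lies 173 bases before the RefSeq start.

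Cd79a: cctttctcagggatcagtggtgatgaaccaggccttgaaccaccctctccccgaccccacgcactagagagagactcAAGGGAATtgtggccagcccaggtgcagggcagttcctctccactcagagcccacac

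A match or its absence describes these letters in these windows alone. RefSeq promoters were found for 4 of the 7 genes (Pax5, Cd22, Cd79a and Ebf1).

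The libraries held between 20171396 and 23282757 counts, and a count of 0 allows a level of up to 3 counts, which was 0.126 to 0.150 CPM (counts relative to the TMM-scaled library size) depending on the library. Intervals and such limits cover counting error only. Stat3, the targeted gene, lay between 428 and 436 CPM in the 4 WT and between 120 and 143 CPM in the 4 STAT3ko libraries, as labelled. The sort was checked with the coreceptor genes: Cd4 was between 1360 and 1602 CPM in CD4 and at most 8.16 CPM in CD8 libraries, and Cd8a was between 819 and 983 CPM in CD8 and at most 15.99 CPM in CD4 libraries. All 8 T cell genes listed (Cd3d, Cd3e, Cd3g, Cd5, Cd2, Thy1, Lck and Cd247) passed the filter on low counts.

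Pax5 (chromosome 4, 44524751 to 44710694, minus strand, mm10) had 338 and 203 counts in the WT CD4 pair of libraries, 4 and 11 in the STAT3ko CD4 pair, 15 and 14 in the WT CD8 pair and 0 and 1 in the STAT3ko CD8 pair. Scaled to library size, these came to 16.9 and 9.59 CPM for the WT CD4 pair, 0.200 and 0.503 for the STAT3ko CD4 pair, 0.648 and 0.589 for the WT CD8 pair and 0 and 0.0451 for the STAT3ko CD8 pair. Both WT CD4 libraries stood above the other 6 libraries, and the lower of them was 14.8 times as high as the highest of those 6. Among the 12428 genes that passed the filter, 4 had a larger ratio of this kind. Pax5 was picked on these same values, so its place here was favoured in advance and is a description only. The groups were at 13.2 ± 5.14, 0.351 ± 0.214, 0.619 ± 0.0416 and 0.0225 ± 0.0319 CPM (mean ± SD, n = 2) in the same order.

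**Figure D1:**
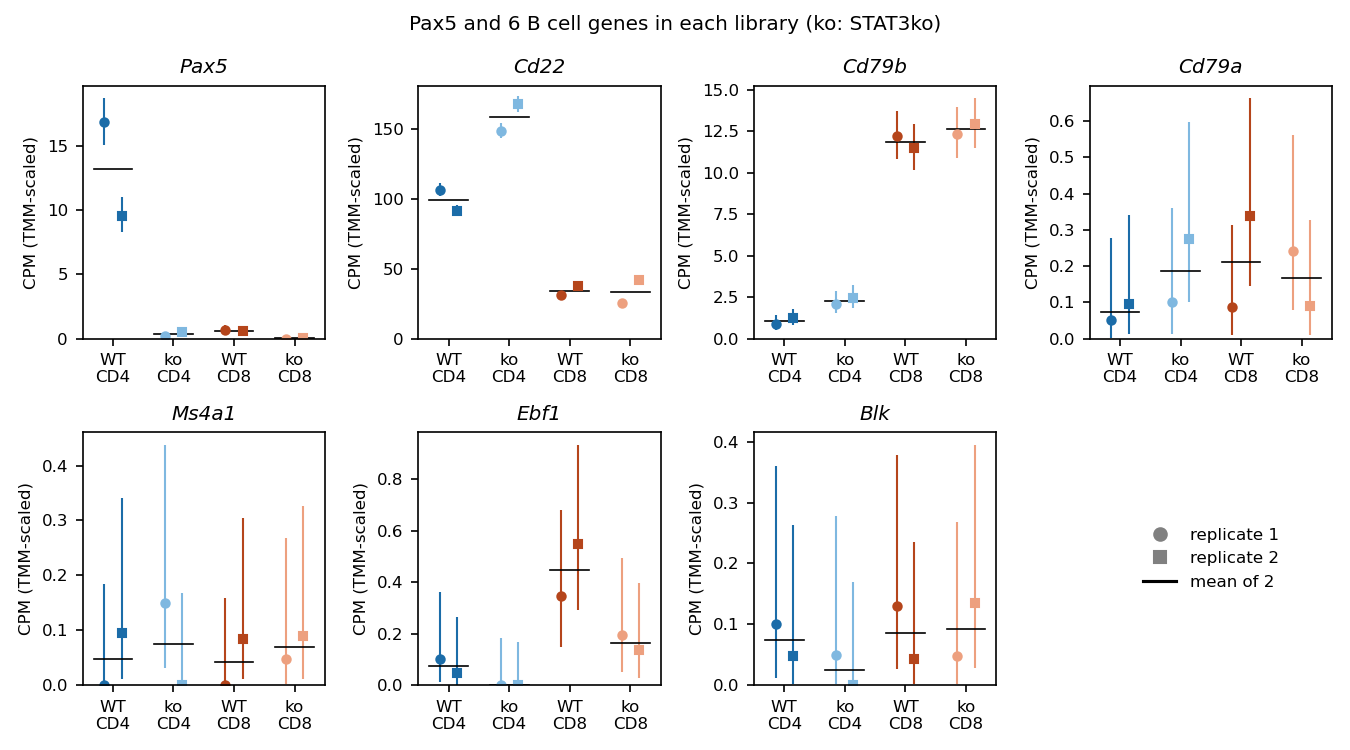
CPM after TMM scaling (linear axes, each with its own range) of the 7 genes by genotype and T cell type; circles and squares are replicates 1 and 2 with 95% exact binomial intervals, and black lines are means of 2. Pax5 is high in WT CD4 alone (16.9 and 9.59 CPM), Cd22 is highest in STAT3ko CD4 (149 and 168 CPM), Cd79b is highest in both CD8 groups, and the other 4 genes lie under 1 CPM everywhere.

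The order of the groups was WT CD4, WT CD8, STAT3ko CD4 and STAT3ko CD8. The neighbours WT CD8 and STAT3ko CD4 were close, since the 2 STAT3ko CD4 libraries (0.200 and 0.503 CPM) lay below the 2 WT CD8 libraries (0.589 and 0.648 CPM) by less than their own spread. Within WT CD4, replicate 1 held 1.76 times as much Pax5 as replicate 2 (95% exact binomial interval 1.47 to 2.10), more than counting error gives. From the summed counts, Pax5 was 36.7 times as high in WT as in STAT3ko CD4 T cells (interval 22.0 to 65.9, counting error only), and 21.2 times as high in WT CD4 as in WT CD8 T cells (14.6 to 32.0). In bulk RNA, fewer cells that hold Pax5 and less Pax5 RNA per cell cannot be told apart.

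The fitted log2 fold change of Pax5 in CD4 T cells was -5.19 (SE 0.51), given as a description. STAT3ko against WT in CD8 T cells, a contrast between other libraries in the same fit of all 8, rested on 29 counts in WT and 1 count in STAT3ko, a ratio of 26.5 with a counting interval of 4.40 to 1084. Its log2 fold change was -4.43 (SE 0.89), and the edgeR quasi-likelihood test gave an adjusted p of 0.0538, so Pax5 did not pass the threshold of 0.05 there, although both WT libraries lay above both STAT3ko libraries (the 2 groups did not overlap for 49.7% of all tested genes). The call depended on the method. DESeq2 gave an adjusted p of 0.0299, the edgeR likelihood-ratio test 0.000436, the edgeR test without the filter 0.0104 and without WT CD4 replicate 2 it gave 0.0499, while the edgeR test with the replicate number as a block gave 0.0140. The edgeR test on only the 4 CD8 libraries gave an adjusted p of 0.112, and all alternatives tried lay within a range of 0.000436 to 0.781. On log2(RPKM + 1), a scale that compresses such low values, the difference was -0.10 (limma adjusted p 0.781). Its level near 0 in STAT3ko T cells was part of how Pax5 was picked, and the STAT3ko CD8 libraries form a side of this contrast. A lower level there was thus favoured in advance, so these p-values are not a separate kind of evidence.

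Cd22, an inhibitory coreceptor of the B cell receptor that binds sialic acid, had the highest RPKM (level per exon length) of the 7 genes in all 4 CD4 libraries, while Cd79b had the highest in all 4 CD8 libraries. Cd22 (chromosome 7, 30865404 to 30880342, minus strand) was at 106 and 91.7 CPM in the WT CD4 pair of libraries, at 149 and 168 in the STAT3ko CD4 pair, at 30.9 and 37.3 in the WT CD8 pair and at 25.3 and 42.0 in the STAT3ko CD8 pair. Both STAT3ko CD4 libraries were above both WT CD4 libraries (log2 fold change 0.68, a description, in a comparison where groups did not overlap for 53.5% of all tested genes), the direction opposite to that of Pax5, while in CD8 T cells the WT values lay between the STAT3ko values.

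For Cd22, the CD8 groups differed by a log2 fold change of -0.017 (SE 0.23, adjusted p 0.980 by edgeR). CD8 T cells held less Cd22 than CD4 T cells, with a log2 fold change of -1.54 in WT (SE 0.23, adjusted p 0.00266 by edgeR) and of -2.23 in STAT3ko (SE 0.23, adjusted p 0.00168 by edgeR).

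Cd79b, one of the 2 signaling chains of the B cell receptor, followed neither pattern. Cd79b (chromosome 11, 106311341 to 106314562, minus strand) was at 0.898 and 1.23 CPM in the WT CD4 pair of libraries, at 2.10 and 2.47 in the STAT3ko CD4 pair, at 12.2 and 11.5 in the WT CD8 pair and at 12.3 and 12.9 in the STAT3ko CD8 pair. All 4 CD8 libraries lay above all 4 CD4 libraries (groups did not overlap for 59.3% of all tested genes between WT CD8 and WT CD4 and for 58.3% in STAT3ko), and the WT CD4 libraries, where Pax5 was highest, held the least Cd79b.

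For Cd79b, the difference between CD8 and CD4 T cells had a log2 fold change of 3.47 in WT (SE 0.22, adjusted p 0.000123 by edgeR) and of 2.46 in STAT3ko (SE 0.20, adjusted p 0.000819 by edgeR). The STAT3ko effect was 1.10 on the log2 scale in CD4 T cells, given as a description, and 0.092 in CD8 T cells (SE 0.18, adjusted p 0.845 by edgeR). Across all tested genes, 2.07% were called in the STAT3ko comparison of CD8 T cells (1.34% higher and 0.732% lower), where 0 of the 3 tested members (Pax5, Cd22 and Cd79b) were called by edgeR, 1 (Pax5) had an unadjusted p under 0.05, and DESeq2 called that 1, as did edgeR with the replicate block. Pax5 had been picked in part on its low level in STAT3ko, so its calls here are no separate evidence. Between CD8 and CD4 T cells, 23.8% of all tested genes were called in WT and 12.5% in STAT3ko, where Cd22 and Cd79b were both called, in opposite directions. Of all tested genes, 11.6% were called in CD4 T cells, the comparison on which Pax5 was picked. The median log2 fold change over all tested genes was between -0.0070 and 0.017 in the 4 comparisons.

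Cd79a, the partner chain without which Cd79b does not form a B cell receptor, stayed near the limit of counting. Cd79a (chromosome 7, 24897497 to 24901858, plus strand) had 1 and 2 counts in the WT CD4 pair of libraries, 2 and 6 in the STAT3ko CD4 pair, 2 and 8 in the WT CD8 pair and 5 and 2 in the STAT3ko CD8 pair. Scaled to library size, both STAT3ko CD4 libraries lay above both WT CD4 libraries (0.0499 and 0.0945 CPM). WT CD4 replicate 2 and STAT3ko CD4 replicate 1 had 2 counts each, so only the scaling set them apart. In that comparison, groups did not overlap for 53.5% of all tested genes. The other pairs of groups overlapped for Cd79a. The 95% counting intervals of all 8 libraries overlapped, and the highest library reached 0.337 CPM.

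Ms4a1 (chromosome 19, 11249679 to 11266149, minus strand) encodes CD20, a surface protein of mature B cells, and had between 0 and 3 counts per library and 10 counts in all. Blk (chromosome 14, 63372837 to 63417187, minus strand), a Src family kinase of B cells, also had between 0 and 3 counts per library, 12 in all. For both genes the 95% counting intervals of all 8 libraries overlapped.

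Ebf1 (chromosome 11, 44618100 to 45008096, plus strand), the factor that acts before Pax5 in B cells, had 2 and 1 counts in the WT CD4 pair of libraries, 0 and 0 in the STAT3ko CD4 pair, 8 and 13 in the WT CD8 pair and 4 and 3 in the STAT3ko CD8 pair. Its highest values were in the WT CD8 and not the WT CD4 libraries. Cd79a, Ms4a1, Ebf1 and Blk did not pass the filter on low counts. In an edgeR fit of the 17623 genes with any count, Ebf1 differed between CD8 and CD4 T cells by a log2 fold change of 2.51 in WT (adjusted p 0.0889) and by a fitted 4.87 in STAT3ko T cells, a value set by the 2 libraries at 0 (adjusted p 0.0899). None of the 4 genes passed the threshold in the 3 comparisons fitted that way other than the one in CD4 T cells (adjusted p between 0.0889 and 1).

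The counts of Cd79a, Ms4a1, Ebf1 and Blk together were 5 and 6 in the WT CD4 libraries, beside 338 and 203 counts of Pax5. In the STAT3ko CD4 libraries the same sum was 6 and 6 counts beside 4 and 11 of Pax5, in WT CD8 13 and 24 beside 15 and 14, and in STAT3ko CD8 11 and 10 beside 0 and 1. In the 4 CD4 libraries this sum was thus 5 or 6 counts at every level of Pax5, and it was higher in the CD8 libraries, where Pax5 was low. Within CD8, the sum was higher in both WT than in both STAT3ko libraries, the direction of Pax5, and so were the counts of Ebf1. Groups did not overlap for 49.7% of all tested genes in that comparison.

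Levels of different genes were compared as RPKM, reads relative to library size and exon length. In WT CD4 T cells, Pax5 was at 2.04 and 1.18 RPKM, Cd22 at 23.9 and 20.9, Cd79b at 0.724 and 1.01, and Cd79a at 0.0494 and 0.0951 RPKM. Ms4a1, Ebf1 and Blk were each at 0.0400 RPKM or less there. Per length, Pax5 was therefore second to Cd22 among the 7 genes in both WT CD4 libraries, while in WT CD8 libraries it was at 0.0789 and 0.0706 RPKM, under Cd22, Cd79b and Cd79a in both.

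**Figure D2:**
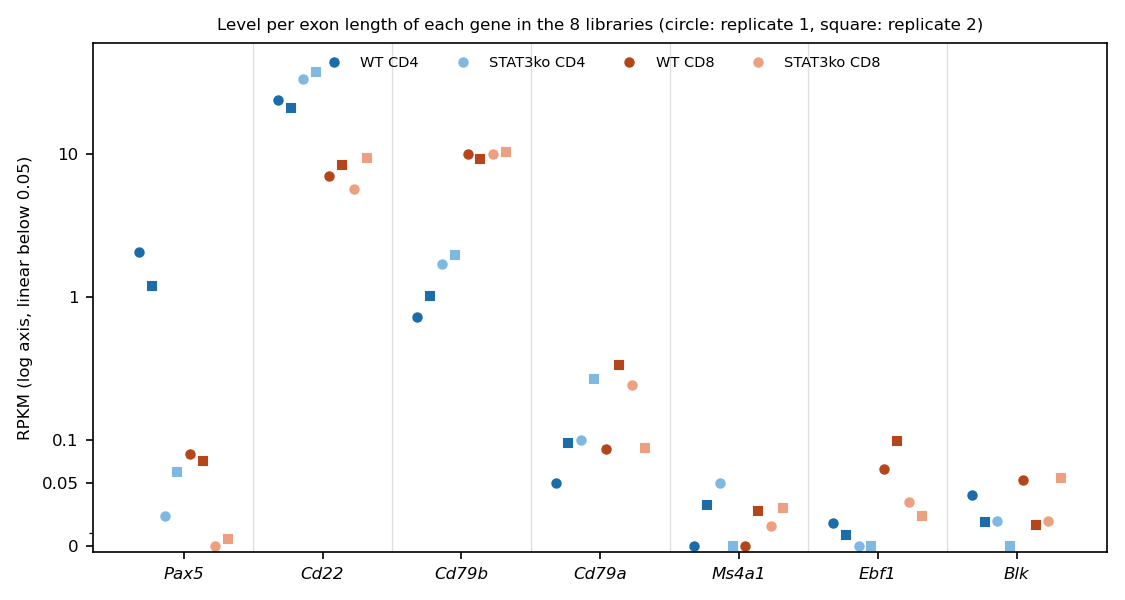
RPKM (log axis, linear below 0.05) of the 7 genes in the 8 libraries, with circles for replicate 1 and squares for replicate 2. In WT CD4 (dark blue), Pax5 lies at 2.04 and 1.18 RPKM while Cd79a, Ms4a1, Ebf1 and Blk are all under 0.1 RPKM.

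Reads of the other T cell type were measured beside these values. In WT CD8 libraries, Cd4 was at 0.0736% and 0.469% of its mean in WT CD4 T cells, whereas Pax5 was at 4.90% and 4.46% and Cd22 at 31.1% and 37.7%. In the WT CD4 libraries, Cd8a was at 0.307% and 1.18% and Cd8b1 at 1.78% and 2.93% of the mean in WT CD8 T cells, while Cd79b was at 7.57% and 10.4%. In WT libraries, Pax5, Cd22 and Cd79b were thus present in the T cell type that held less of them at larger shares than the coreceptor genes. In STAT3ko CD8 libraries, Cd22 was at 15.9% and 26.5% and Cd4 at 0.103% and 0.514% of their means in STAT3ko CD4 T cells. Pax5 was at 0% and 12.8% there, from 0 and 1 counts, so its share cannot be read in that genotype.

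A list of 16 further genes of mature B cells was set beside the members. Of these, 7 (Cr2, Fcer2a, Fcrla, Fcrl5, Vpreb3, Siglecg and Ly6d) had at most 3 counts in every library, with Fcrl5 at 0 in all 8, and 7 passed the filter. The summed level of the 16 genes was 81.0 and 83.3 CPM in the WT CD4 pair, 34.6 and 44.9 in the STAT3ko CD4 pair, 50.9 and 63.4 in the WT CD8 pair and 42.3 and 49.0 in the STAT3ko CD8 pair. This sum was highest in the WT CD4 libraries, as Pax5 was, and most of it came from Fcrl1, Pou2af1, Ralgps2, Cd72 and Tnfrsf13c.

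In STAT3ko CD4 T cells, 0 of the 7 tested genes of this list were called higher and 2 lower (6.54% and 5.08% of all tested genes). No further gene of the 7 had an unadjusted p under 0.05 there, and DESeq2 gave the same counts, 0 and 2. Fcrl1, an Fc receptor-like protein of B cells, was at 30.9 and 32.9 CPM in the WT CD4 pair of libraries, at 7.90 and 9.27 in the STAT3ko CD4 pair, at 10.8 and 13.3 in the WT CD8 pair and at 5.45 and 5.28 in the STAT3ko CD8 pair. It fell with STAT3 loss in CD4 T cells (log2 fold change -1.89, SE 0.15, adjusted p 0.000973 by edgeR) and in CD8 T cells (log2 fold change -1.17, SE 0.16, adjusted p 0.0198 by edgeR). The CD8 call was lost when any of the 4 CD8 libraries was left out (edgeR adjusted p between 0.050 and 0.134). Pou2af1, the coactivator OBF-1 of octamer factors, fell from 25.9 and 22.8 to 4.65 and 9.87 CPM in CD4 T cells (log2 fold change -1.74, SE 0.37, adjusted p 0.0238 by edgeR). This call was lost without WT CD4 replicate 1 or 2 or STAT3ko CD4 replicate 1 (edgeR adjusted p between 0.0699 and 0.104).

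Between CD8 and CD4 T cells of WT donors, CD8 T cells had 2 of the 7 genes called higher and 3 lower (12.2% and 11.6% of all tested genes). Cd72, an inhibitory B cell coreceptor, had 1.40 and 1.56 CPM in WT CD4 and 13.7 and 15.8 CPM in WT CD8 libraries (log2 fold change 3.31, SE 0.21, adjusted p 0.000123 by edgeR). It was higher in CD8 libraries, as Cd79b was. Tnfrsf13c, the receptor of the B cell survival factor BAFF, was higher too (log2 fold change 1.33, SE 0.20, adjusted p 0.00263 by edgeR). Lower in CD8 were Ralgps2 (-1.71), Pou2af1 (-2.12) and Fcrl1 (-1.40), with edgeR adjusted p between 0.000655 and 0.00585. In STAT3ko T cells, Cd72 and Tnfrsf13c were called higher in CD8, and Fcrl1 and Ralgps2 lower, against 5.84% and 6.67% of all tested genes. Without any 1 of the 4 STAT3ko libraries the calls of Fcrl1 (edgeR adjusted p between 0.0845 and 0.168) and Ralgps2 (between 0.0528 and 0.0717) were lost.

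Precursors and plasma cells, the B lineage stages before and after mature B cells, were listed as well. Of 8 precursor genes, Vpreb2, Rag1 and Rag2 were at 0 counts in all 8 libraries and Igll1 had at most 1 count, while Il7r, the interleukin-7 receptor chain that T cells also use, was between 288 and 994 CPM. Il7r was lower in CD8 than in CD4 T cells of WT donors (log2 fold change -0.93, SE 0.17, adjusted p 0.00616 by edgeR). Of 6 plasma cell genes, 5 passed the filter, Tnfrsf17 was at 0 in all libraries, and 0 were called by edgeR or DESeq2 in either STAT3ko comparison, with 0 (CD4) and 1 (CD8) at an unadjusted p under 0.05. Over all tested genes, edgeR called 11.6% (CD4) and 2.07% (CD8) in these comparisons. Jchain was at 1.75 and 5.24 CPM in the WT CD4 pair and at 1.85 and 13.5 CPM in the STAT3ko CD4 pair. In CD8 T cells it was at 1.81 and 10.2 CPM in WT and at 0.916 and 17.5 CPM in STAT3ko. Jchain, Mzb1 and Derl3 were higher in replicate 2 of every group, while Sdc1 and Tnfrsf13b were not. Tnfrsf13b, a BAFF and APRIL receptor, was lower in CD8 than in CD4 T cells of WT donors (log2 fold change -0.49, SE 0.13, adjusted p 0.0322 by edgeR). That call was lost without WT CD4 replicate 2, either WT CD8 library or either STAT3ko CD4 library (edgeR adjusted p between 0.0528 and 0.150). The 8 immunoglobulin constant region genes listed were not analysed here, since no row of the tables used carried their names.

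The other 8 Pax family genes served as relatives of Pax5. Pax1, Pax2, Pax4, Pax7 and Pax8 were at 0 counts in all 8 libraries, and Pax3, Pax6 and Pax9 had at most 2 counts in any library. Pax5 was thus the one Pax gene that passed the filter.

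Genes that Pax5 is known to activate in B cells were read in the same libraries. Of 13 such genes, 8 passed the filter, and in CD4 T cells 2 were called higher in STAT3ko and 0 lower (6.54% and 5.08% of all tested genes). Ikzf3, the lymphoid factor Aiolos, was at 456 and 374 CPM in the WT CD4 and rose to 782 and 723 CPM in the STAT3ko CD4 pair (log2 fold change 0.86, SE 0.13, adjusted p 0.00747 by edgeR), and this call was lost without STAT3ko CD4 replicate 1 (edgeR adjusted p 0.0591). Cd55, a complement inhibitor, rose from 13.9 and 13.9 to 19.6 and 24.6 CPM (log2 fold change 0.67, SE 0.15, adjusted p 0.0320 by edgeR). It lost its call without any 1 of the 4 CD4 or 2 STAT3ko CD8 libraries (edgeR adjusted p between 0.0540 and 0.184). The median log2 fold change of the 8 tested genes was 0.21 for CD4 and 0.085 for CD8, beside 0.017 and -0.0070 for all tested genes. For CD8, 0 of the 8 were called by edgeR, beside 2.07% of all tested genes, with 2 at an unadjusted p under 0.05 and 1 called by DESeq2. Both Ikzf3 and Cd55 moved opposite to Pax5 in CD4 T cells.

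Between WT CD8 and WT CD4 T cells, 3 of the 8 tested genes that Pax5 activates were called higher in CD8 and 1 lower (12.2% and 11.6% of all tested genes). Higher were Cd72, Ikzf3 (log2 fold change 0.58) and Irf8 (1.00) and lower was Bach2 (-1.10), with edgeR adjusted p between 0.000123 and 0.0172. Ikzf3 lost that call without WT CD4 replicate 2 or WT CD8 replicate 1 (edgeR adjusted p 0.0788 and 0.111). In STAT3ko T cells Cd72 was called higher and Bach2 lower in CD8 (5.84% and 6.67% of all tested genes). Bach2, a repressor that B and T cells both use, lost that call (log2 fold change -0.69, edgeR adjusted p 0.0431) without either CD4 library of either genotype or either STAT3ko CD8 library, with edgeR adjusted p between 0.0530 and 0.205.

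Genes that Pax5 represses in B cells showed no edgeR call with STAT3 loss in the fit without the replicate block. Of 7 such genes (Notch1, Csf1r, Flt3, Cd28, Ccr2, Grap2 and Emb), 6 passed the filter, and this fit called 0 in either STAT3ko comparison, with 1 (CD4) and 0 (CD8) at an unadjusted p under 0.05 and as many called by DESeq2. The same fit called 11.6% (CD4) and 2.07% (CD8) of all tested genes. The median log2 fold change of the 6 genes was 0.037 for CD4 and -0.038 for CD8. Grap2, an adaptor of T cell receptor signaling, was at a higher level in CD8 than in CD4 of WT donors (log2 fold change 0.76, SE 0.13, adjusted p 0.00471 by edgeR). Flt3 had at most 1 count in any library.

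Transcription factors of the B lineage that T cells may share formed a list of 19, of which 17 passed the filter. With STAT3 loss in CD4 T cells 1 was called higher (Ikzf3) and 3 lower (Pou2af1, Tcf12 and Lef1), beside 6.54% and 5.08% of all tested genes, and 0 were called in CD8 T cells by edgeR (2.07% of all tested genes) or DESeq2, where 2 had an unadjusted p under 0.05. Tcf12, the E protein HEB, fell from 255 and 282 to 179 and 193 CPM (log2 fold change -0.53, SE 0.12, adjusted p 0.0249 by edgeR), and lost its call without WT CD4 replicate 2 or either STAT3ko CD4 library (edgeR adjusted p between 0.0997 and 0.165). Lef1, a factor of Wnt signaling, had an adjusted p of 0.0481 (log2 fold change -0.54, SE 0.14, edgeR), which any 1 library left out carried past the threshold (0.0531 to 0.230). The median log2 fold change of the 17 was 0.084 in CD4 T cells. In WT CD8 against WT CD4 T cells, Ikzf3 and Irf8 were called higher, and Tcf12 (-0.89), Bach2, Pou2f2 (-0.997) and Pou2af1 lower, beside 12.2% and 11.6% of all tested genes.

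Markers of other cells were read as well. The summed level of 10 macrophage genes was 49.7 and 130 CPM in the WT CD4 pair, 53.5 and 176 in the STAT3ko CD4 pair, 60.5 and 222 in the WT CD8 pair and 79.8 and 200 in the STAT3ko CD8 pair. It was higher in replicate 2 of every group, whereas Pax5 was higher in replicate 1 of both WT groups and in replicate 2 of both STAT3ko groups. In the fit without the replicate block, Cd68 alone of the 10 macrophage genes was called, higher in CD8 than in CD4 T cells (log2 fold change 1.51 in WT, SE 0.24, adjusted p 0.00337 by edgeR). That fit called 12.2% of all tested genes higher in CD8 in WT and 5.84% in STAT3ko. With STAT3 loss, 0 of the 10 were called by that fit or by DESeq2 or had an unadjusted p under 0.05. The shares over all tested genes in that fit were 11.6% (CD4) and 2.07% (CD8). The sum of 9 genes of neutrophils and myeloid progenitors was between 3.60 and 22.0 CPM. In any of the 4 comparisons, 0 of 8 tested genes were called by edgeR without the block or by DESeq2, and at most 2 had an unadjusted p under 0.05. Over all tested genes, edgeR without the block called between 2.07% and 23.8% in these comparisons.

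Plasmacytoid dendritic cells share some B lineage genes, and their defining gene Siglech was at 0 counts in all 8 libraries. Of 6 genes listed, 3 passed the filter, and in STAT3ko CD4 T cells Ccr9, a gut-homing receptor, was higher (log2 fold change 1.62, SE 0.23, adjusted p 0.00503 by edgeR) and Pacsin1 lower (-1.05, SE 0.18, adjusted p 0.0104 by edgeR), beside 6.54% and 5.08% of all tested genes. Pacsin1 lost its call without STAT3ko CD4 replicate 2 (edgeR adjusted p 0.0817). The list summed to 82.9 and 75.4 CPM in WT CD4, 86.3 and 95.9 CPM in STAT3ko CD4, and between 59.5 and 65.8 CPM in CD8 libraries. The 8 erythroid genes summed to 1.50 and 3.59 CPM in the WT CD4 pair, 7.35 and 12.8 in the STAT3ko CD4 pair, 3.50 and 8.38 in the WT CD8 pair and 11.1 and 24.6 in the STAT3ko CD8 pair, with the 4 hemoglobin genes at 0 in all 8. This sum was higher in STAT3ko than in WT of the same replicate, and most of it in STAT3ko came from the carbonic anhydrase gene Car2. Car2 was at 6.50 and 10.9 CPM in STAT3ko CD4 and at 10.7 and 18.0 CPM in STAT3ko CD8. In CD4 T cells it was called higher in STAT3ko (log2 fold change 2.71, SE 0.45, adjusted p 0.00976 by edgeR), except without STAT3ko CD4 replicate 2. Alas2, the next highest gene of this list, was lower in STAT3ko in CD4 replicate 2 and CD8 replicate 1 and higher in the other pairs. The part of such cells in the values of Pax5 was not tested.

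The edgeR calls of the lists above are from the fit without the replicate number as a block. With that block, edgeR called more genes of these lists, as it did over all tested genes. In STAT3ko CD8 T cells, where 10.3% of all tested genes were then called higher and 7.89% lower, the genes that Pax5 activates had 2 called higher (Cd55 and Ikzf3) and 1 lower (Irf8), and the genes it represses had 0 higher and 2 lower (Emb and Notch1). Of the 17 transcription factors, 3 were called higher (Ikzf3, Runx1 and Tcf4) and 3 lower (Id2, Irf8 and Tcf12) there. In STAT3ko CD4 T cells, where the shares over all tested genes were 16.5% and 13.7%, Emb and Notch1 were called lower as well, Bank1 was called higher among the mature B cell genes, and the transcription factors had 3 called higher and 4 lower. Il7r was called higher in both STAT3ko comparisons, Car2 also in CD8, and Camp, Ltf and S100a9 of the neutrophil list lower in CD8. Marco of the macrophage list was called higher in STAT3ko CD4, and Bst2 of the plasmacytoid list higher in both STAT3ko comparisons. Pacsin1 was called lower in STAT3ko CD8 as well. Of the T cell list, Cd5 was called higher and Cd2 lower in STAT3ko CD4. Between CD8 and CD4 T cells, the transcription factors had 2 called higher and 7 lower in WT (20.6% and 21.5% of all tested genes) and 0 higher and 6 lower in STAT3ko (14.4% and 15.3%). The genes of this paragraph were named after their calls were seen.

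Genes beside Pax5 on chromosome 4 were examined for a change along the region. Inside the gene, the rows of Mir5120 and 5730488B01Rik, which overlap it, had 0 and at most 1 count in any library. The neighbours reported on the side of lower coordinates were Melk, 160.1 kb away, Mir5106, Gm12504 and Gne, and those on the other side were Zcchc7, 45.9 kb away, Grhpr, Zbtb5, Polr1e and Fbxo10. Of these genes outside Pax5, 7 passed the filter. With STAT3 loss, 1 of these 7 (Melk) was called for CD4 and 0 for CD8 by both edgeR and DESeq2, with 2 and 1 at an unadjusted p under 0.05. Over all tested genes, edgeR called 11.6% for CD4 and 2.07% for CD8. With the replicate block, Melk was called higher for CD8 as well (edgeR adjusted p 0.0421), as were 10.3% of all tested genes.

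Zcchc7, the nearest gene, had 88.1 and 84.3 CPM in WT CD4 and 92.4 and 91.0 CPM with STAT3 lost (log2 fold change 0.089, SE 0.092, adjusted p 0.595 by edgeR). Melk, a kinase of dividing cells, rose from 19.3 and 17.7 to 42.9 and 43.1 CPM (log2 fold change 1.22, SE 0.13, adjusted p 0.00217 by edgeR), against the direction of Pax5. The other 5 tested neighbours lay between -0.16 and 0.31 in CD4 T cells and between -0.16 and 0.53 in CD8 T cells on the log2 scale. In WT CD8 against WT CD4 T cells, Zcchc7 was lower (log2 fold change -0.48, SE 0.092, adjusted p 0.00814 by edgeR, but 0.0571 without WT CD8 replicate 2) and Melk higher (1.37, SE 0.13, adjusted p 0.000402 by edgeR). The near absence of Pax5 reads in STAT3ko libraries was not matched in size by any of these 7 genes. Pax5 was picked in part on that near absence and its neighbours were not. A larger change in Pax5 was thus favoured in advance, and the comparison is a description only. A cause acting along the region was not tested.

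**Figure D3:**
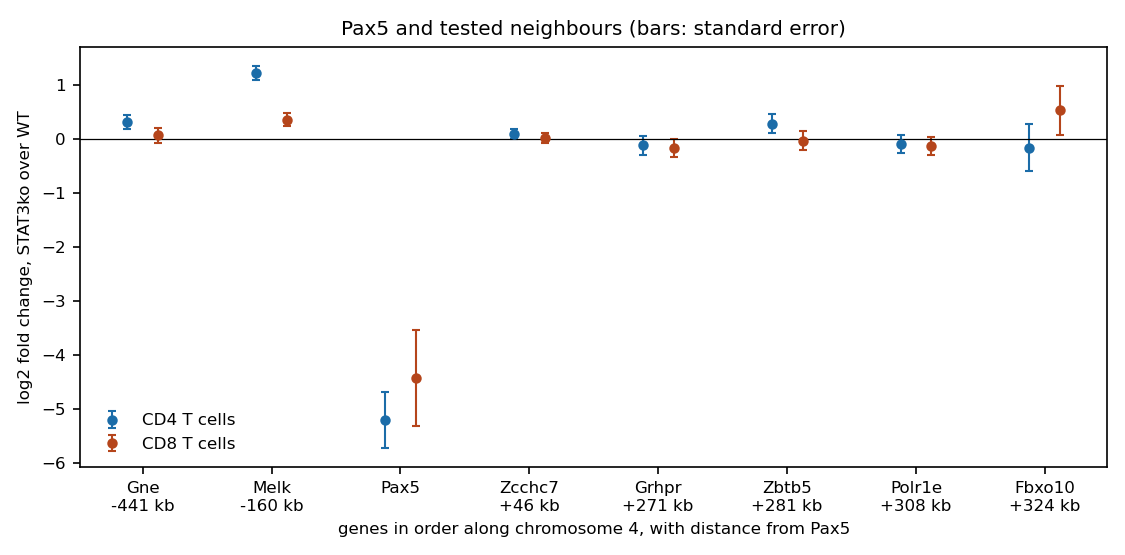
Log2 fold change of STAT3ko over WT (vertical axis; bars are standard errors) in CD4 (blue) and CD8 (red) T cells for Pax5 and 7 tested neighbours, in order along chromosome 4 with the distance from Pax5 in kb. Pax5 lies at -5.19 and -4.43, while the neighbours lie between -0.16 and 1.22.

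For 2 members, exons annotated for genes of the other strand share bases with theirs. In GENCODE M21, 7.18% of the exon bases of Pax5 are shared with 5730488B01Rik and 1.41% with Gm12462, and 9.50% of those of Cd22 with Gm29439. Without strand in the counting, which is not given in the sources used here, reads from these bases could not be assigned to a strand. The counts are sums over a gene and do not show which Pax5 exons they came from.

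The genes whose pattern over the 8 libraries was most like that of Pax5 were ranked by Pearson correlation of log2(CPM + 1). All 8 libraries share the contrast on which Pax5 was picked, so the values below describe a likeness and carry no test. The 8 genes at the top were Akap6 (r = 0.992), Lum, Jmy, Cebpd, Vwde, Cacna1b, Padi4 and Rapgef5 (r = 0.986), and none of them is in the lists of B cell genes. Of these 8 genes, 5 were also among the top 8 by log2(RPKM + 1), where Miat, Ascl2 and Gm2762 took the other places. Cd22 had r = 0.37 and Cd79b r = -0.73 with Pax5. Outside the top 8, some genes of the mature B cell list shared parts of the pattern. Fcrl1 had the same order of group means as Pax5 (31.9 CPM in WT CD4, 12.1 in WT CD8, 8.59 in STAT3ko CD4 and 5.36 in STAT3ko CD8). Pou2af1 was also highest in WT CD4, whereas Cd72 and Tnfrsf13c were highest in WT CD8.

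Akap6, an anchoring protein of protein kinase A, was at 5.19 and 4.58 CPM in the WT CD4 pair of libraries, at 0.150 and 0.503 in the STAT3ko CD4 pair, at 0.648 and 0.547 in the WT CD8 pair and at 0 and 0.0451 in the STAT3ko CD8 pair. It had the same order of groups as Pax5. Cebpd, a C/EBP transcription factor, had 18.2 and 10.0 CPM in WT CD4 and at most 2.07 CPM in the other libraries, with the same excess of replicate 1 over replicate 2 in WT CD4. Cacna1b, a subunit of neuronal calcium channels, had 12.2 and 10.7 CPM in WT CD4 and at most 0.884 CPM elsewhere.

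Padi4, an enzyme that turns arginine into citrulline in proteins, had 12.8 and 9.12 CPM in WT CD4 and at most 0.411 CPM elsewhere. Lum, a matrix proteoglycan, and Vwde lay at 2.59 and 2.50 and at 2.24 and 1.65 CPM in WT CD4 libraries, and at or under 0.379 CPM elsewhere. Jmy and Rapgef5 were of another kind, since they stayed high in all groups: Jmy had 43.4 and 42.0 CPM in WT CD4 and between 29.4 and 32.5 CPM elsewhere, and Rapgef5 27.8 and 26.2 against 8.58 to 11.5 CPM.

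**Figure D4:**
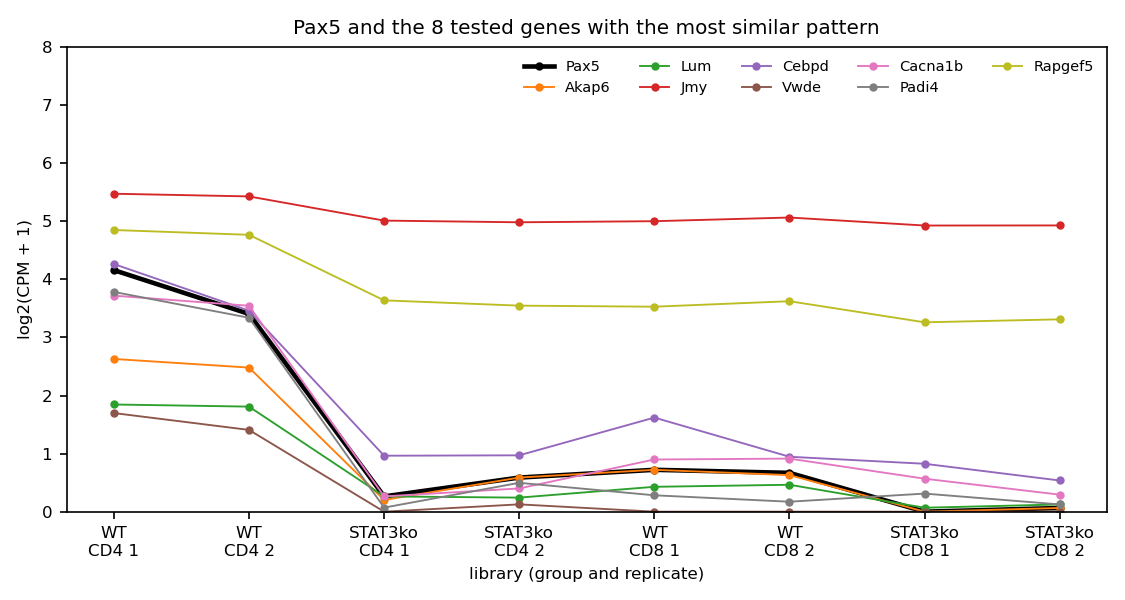
log2(CPM + 1) of Pax5 (black) and the 8 tested genes with the highest correlation to it in the 8 libraries (horizontal axis, group and replicate). All 9 genes are highest in the 2 WT CD4 libraries, and Jmy and Rapgef5 differ from the rest in staying high in the other 6.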

How the data were processed

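RNA of 8 libraries was read as 51-base single-end reads. The authors aligned them to mm10 with STAR 2.7, per the submitters' processing notes, and summed them over RefSeq genes with HTSeq-count 0.11. The authors deposited these raw counts and RPKM values. The growth and treatment fields of the labels describe another cell system and were not used, and kit names differ between sources. Counts were scaled by TMM and filtered with filterByExpr by group (minimum count 10), which left 12428 of 25078 rows. 26 rows carry dates in place of names. All libraries entered one edgeR 4.0.16 quasi-likelihood fit (R 4.3.3, two-sided, Benjamini-Hochberg adjusted p under 0.05), tested on simulated data. In the labels, library numbers run together within a replicate number. Deviations of same-numbered libraries from their group means correlated by 0.44 to 0.73 between all 6 pairs of groups. Results with that number as a block are therefore given for some of the calls that it changes, and not for all. What the number stands for is not given in the sources used here. DESeq2 1.42.0 and limma 3.58.1 on log2(RPKM + 1) or log2(RPKM + 0.1) were alternatives. The members and lists were chosen with earlier results of these data known. Named genes were the 7 members, Stat3, Cd4, Cd8a and Cd8b1, neighbours of Pax5 on both sides, the 8 genes most like it, and up to 4 called genes per list. Cd55, Lef1, Jchain, Mzb1, Derl3, Sdc1 and Alas2 were added after their values were seen, as were Cr2, Fcer2a and the other B cell genes named for low counts. Some genes that these rules and lists cover are not reported here. Exon overlaps were computed from GENCODE M21.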

Additional observations from a re-analysis of the deposited data

Results flagged for a closer look

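Thy1, a surface protein of T cells that was listed to check the sort, moved in opposite directions with STAT3 loss. Both STAT3ko CD4 libraries were above both WT CD4 libraries (log2 fold change 0.34), and both STAT3ko CD8 libraries were below both WT CD8 libraries (log2 fold change -0.12). Groups did not overlap for 53.5% (CD4) and 49.7% (CD8) of all tested genes. The difference between these effects was not tested. The CD4 call (adjusted p 0.0448 by edgeR) was lost when any 1 of the 8 libraries was left out (0.0531 to 0.228), and the CD8 difference did not pass the test (adjusted p 0.506 by edgeR).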

How the results depend on the processing

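Cd22 and Cd79b kept their direction and their call between CD8 and CD4 T cells, in both genotypes, under all 17 alternatives. The count of called genes moved most. With the replicate block it was 3747 in CD4, 2258 in CD8, 5232 for WT CD8 against CD4 and 3689 for STAT3ko CD8 against CD4, and with only the 4 libraries compared it was 951, 20 and 1937 in the first 3. In CD8 T cells DESeq2 called 885, the likelihood-ratio test 815 and the fit without a filter 454. Without 1 library the counts ranged from 412 to 1320 in CD4, from 7 to 241 in CD8, from 1575 to 2573 for WT CD8 against CD4 and from 457 to 1608 for STAT3ko. For Pax5 in CD4 T cells the log2 difference was -1.30 on log2(RPKM + 1) and -3.55 on log2(RPKM + 0.1), and between -4.70 and -6.01 without 1 library. For Pax5 in CD8 T cells it was -4.74 with DESeq2, -4.43 with the likelihood-ratio test, -4.44 without a filter, -4.42 with the replicate block (edgeR adjusted p 0.0140), and between -3.62 and -6.75 without 1 library. The cause of these shifts was not tested, apart from fewer samples or another scale. All genes called without the block were also called with it. At this depth, 4 members lie near the counting limit.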

Other observations

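The genes most opposite to Pax5 over the 8 libraries were Eepd1 (r = -0.98), Slc43a3 (-0.98), Plac8 (-0.97), Emp3 (-0.97) and Abcb1b (-0.97), described over 8 libraries with no test.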
